A study of Homo sapiens with 2 samples.

Results

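Sites of lactylated lysine were profiled with CUT&Tag in CAL27 cells, an established human line of oral squamous cell carcinoma, and those described here are the stretches of DNA that were marked in both libraries and lie far from any annotated gene. CUT&Tag uses an antibody, here one raised against lactylated lysine in any protein, to bring a transposase to the modified chromatin, where it cuts and tags the DNA. The study had 2 libraries: untreated CAL27 cells, and CAL27 cells kept in 10 mM lactate for 24 h. Both came from the same line with no genetic change named in the labels. A region is a stretch called by the peak caller, and regions of the 2 libraries that overlapped by at least 1 bp were joined into a locus. A locus was kept if it lay on chromosomes 1 to 22 or X and if the strongest summit of each of its regions lay outside every RefSeq gene of any type and over 10 kb from any gene end. This left 4325 distal loci out of 30034 shared loci, or 14.4% (95% exact binomial interval 14.0 to 14.8%). They held 4414 of 43680 untreated-label regions and 4399 of 50352 lactate-label regions. In 4167 of the loci each library contributed a single region. A further 23 shared loci met the distance rule for only some of their regions and were left out.

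Lactate made by glycolysis can be joined to lysine residues, and lactylation of histones was first described as a mark tied to transcription. It has been found at promoters and also at enhancers, the regulatory elements that act on a gene from a distance. Enhancers often stand in stretches poor in genes around developmental regulators, so distance to the nearest gene does not by itself name the gene that an element acts on. Here a gene desert means the stretch between neighbouring annotated genes of any type, its distal part is what remains after removing 10 kb beside each gene, and the sum of these parts is called the distal territory.

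With a single library for each group, differences between the libraries rest on no replicates, no p-values are given, and all intervals are 95% intervals for counting error only. Depth was 15696147 tags for the untreated label and 15120031 for the lactate label. The headers contradict the labels: run name, input file and peak names in each list are those of the opposite sample, and only the name line fits. Groups follow the labels here, and any direction between the libraries would turn if the lists were swapped. Marker genes were looked up as a check of the cell line: all 8 of 8 squamous epithelial markers had a region inside or within 10 kb in both libraries. The same held for 10 of 14 markers of other cell types in the library labelled untreated, with none at SPI1, KDR, ALB and APOA1, and for 12 of 14 in the other, with none at KDR and ALB. A region at a gene is not a measure of its expression, and this check does not separate cell types. Without a library made without antibody, cutting of open chromatin cannot be told apart from the antibody's signal.

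Of the 13 protein-coding genes that were nearest to 10 or more distal loci, 9 had a promoter sequence in the table used. Of these, IFTAP and C16orf95 had a region over the promoter in both libraries, and their promoters are shown because these are the marked start sites among the genes with the most distal loci. Nearness does not tie the loci to these promoters. The sequences are from RefSeq on GRCh38.p14 and run 5′ to 3′ on the strand of the gene, over the 250 bases before its start. Capitals mark GC boxes, searched as GGGCGG on both strands (CCGCCC on the other strand).
IFTAP promoter, chr11:36594252-36594501, + strand: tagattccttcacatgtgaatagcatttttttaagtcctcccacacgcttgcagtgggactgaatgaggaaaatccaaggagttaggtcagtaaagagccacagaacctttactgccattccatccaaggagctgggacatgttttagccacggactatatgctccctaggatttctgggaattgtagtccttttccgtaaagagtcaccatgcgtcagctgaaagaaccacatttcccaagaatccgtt
C16orf95 promoter, chr16:87317393-87317642, - strand: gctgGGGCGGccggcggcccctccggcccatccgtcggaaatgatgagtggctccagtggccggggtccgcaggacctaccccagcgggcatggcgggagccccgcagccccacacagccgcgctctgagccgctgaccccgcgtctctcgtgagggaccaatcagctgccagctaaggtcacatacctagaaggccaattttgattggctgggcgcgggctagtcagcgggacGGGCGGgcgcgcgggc
The IFTAP promoter had 44.8% GC, 5 CpG sites and 0 GC boxes, and the C16orf95 promoter had 70.8% GC, 25 CpG sites and 2 GC boxes. Over all 22132 protein-coding promoters of this length in the table, the median GC content was 62% and 53.7% held a GC box. The IFTAP promoter region had a pileup, the number of tags stacked at the summit, of 29 in each library. The C16orf95 promoter region had 20 and 22 tags. A motif match describes letters only, and the sequences of the distal loci themselves were not used here.

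The 4325 loci were thinly spread. Between the outermost genes of each chromosome the distal territory covered 945 Mb, or 31.2% of the span, and held 4318 loci, or 4.57 per Mb. The remaining 2084 Mb held 12.3 shared loci per Mb, so the density in distal territory was 0.370 times that elsewhere (0.358 to 0.382). The territory includes centromeres and assembly gaps, which were not separated. Leaving out deserts with a distal part over 2 Mb gave a ratio of 0.446.

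Within the distal territory, loci lay closer to genes than the territory as a whole. The median distance from a locus to the nearest gene of any type was 25 kb (24.4 to 25.6), with quartiles of 15.6 and 45.5 kb. Over the territory, measured at positions 100 bp apart, the median was 47.0 kb. To the nearest protein-coding gene the median was 63.0 kb (58.6 to 66.4), with quartiles of 26.6 and 172 kb, against 237 kb over the territory. Loci over 100 kb from any protein-coding gene numbered 1617, or 37.4%, where 67.7% of the territory lies that far away. Over 500 kb there were 342 loci, or 7.91%, against 33.7% of the territory, and over 1000 kb there were 82, or 1.90%, against 19.99%. Density fell at every step of distance to the nearest protein-coding gene, from 11.1 loci per Mb at 10 to 20 kb through 7.01 at 50 to 100 kb and 3.18 at 200 to 500 kb to 0.434 beyond 1000 kb. By distance to a gene of any type, which the rule uses, the bin next to the limit, 10 to 15 kb, held 8.47 loci per Mb, below the 12.3 per Mb outside the distal territory.

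**Figure D1:**
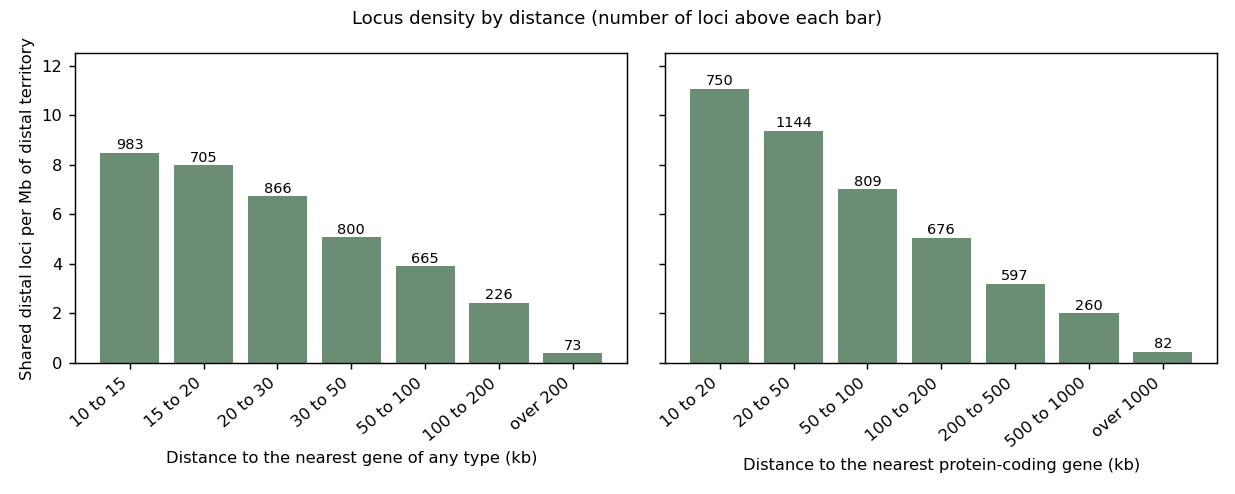
Shared distal loci per Mb of distal territory (y axis) in bins of distance in kb (x axis) to the nearest gene of any type and to the nearest protein-coding gene. Density falls with each step away from genes in both panels, to 0.384 loci per Mb beyond 200 kb from any gene and 0.434 beyond 1000 kb from a protein-coding gene.

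Around the limit of 10 kb, the loci just inside it were chr11:18853187-18853644 at 10001 bp from the nearest gene, with fold enrichments of 5.56 and 5.91, and chr4:41709924-41710202 at 10005 bp, with 5.92 and 8.28. Just outside it, chr2:64676002-64676233 at 9993 bp had 5.24 and 4.84. Here and below, of a pair of values the first is from the library labelled untreated and the second from the library labelled lactate. Fold enrichment is the authors' own value for a peak, its pileup divided by local background, each raised by 1.

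The median distance to the nearest other distal locus was 50.5 kb, and 974 loci, or 22.5%, had another within 10 kb. Of loci whose nearest protein-coding gene had a known strand, 1809 of 3424 lay upstream of it, or 52.8% (51.1 to 54.5%), where 49.5% of the corresponding territory is upstream. By chromosome, the density was highest on chromosome 17, at 7.60 loci per Mb of distal territory, followed by chromosome 7 at 7.19, chromosome 20 at 6.63, chromosome 2 at 6.61 and chromosome 11 at 6.60. It was lowest on chromosome X, at 1.17 per Mb, with chromosome 4 at 2.07, chromosome 18 at 2.11, chromosome 21 at 2.29 and chromosome 14 at 2.35. Over the 23 chromosomes the density of distal loci ran with the density of other shared loci (Spearman rho 0.54) and with the median background at the distal loci (0.52 and 0.49). These values share the same 2 libraries and are given as a description.

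In fold enrichment the distal loci were close to the loci at gene ends, here shared loci whose summits lie within 1 kb of either end of a protein-coding gene. The median fold enrichment of the distal loci was 5.19 in the library labelled untreated, against 5.15 at gene ends, a difference of 0.04 (-0.07 to 0.16). In the library labelled lactate it was 5.63 against 5.73, a difference of -0.10 (-0.22 to 0.05). Both intervals include 0. Shared loci inside protein-coding genes had lower medians, 4.88 and 5.34. The distal loci had fewer tags and were narrower than gene-end loci. Their median pileup was 15 and 16 tags against 18 and 21 at gene ends, and their median width 349 and 377 bp against 406 and 482 bp. The local background, recomputed from pileup and fold enrichment, had medians of 1.88 and 1.88 tags at distal loci against 2.56 and 2.78 at gene ends. Similar folds thus stood on fewer tags over a lower background.

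Strong and broad loci were few. A fold of at least 10 was reached by 92 (2.13%) and 190 (4.39%) distal loci, against 1.42% and 3.04% of gene-end loci. Regions wider than 1 kb made up 0.994% and 1.43% of distal loci, against 2.36% and 4.29% at gene ends. A background of at least 3 times the genome-wide value in 1 or both libraries, called high background here, was found at 1075 distal loci, or 24.9%, and at 46.6% of gene-end loci. The share of high-background loci was 33.9% at 10 to 20 kb from a protein-coding gene and 7.32% (6 of 82) beyond 1000 kb. By distance to a gene of any type it did not fall throughout, with 31.6% at 10 to 15 kb, 14.9% at 50 to 100 kb and 34.2% beyond 200 kb.

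**Figure D2:**
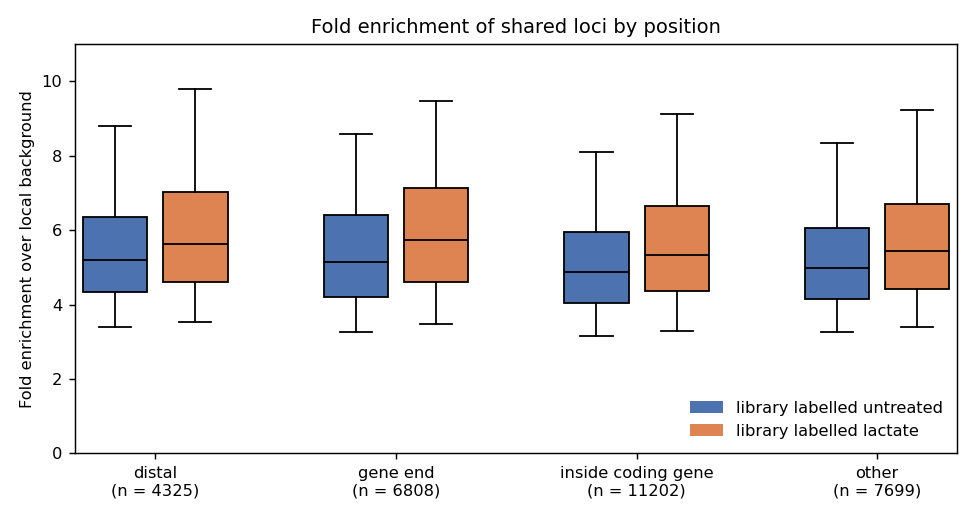
Fold enrichment of shared loci (y axis) by class of position (x axis) in each library, with the line at the median, the box from the first to the last quartile and whiskers from the 5th to the 95th percentile. Distal loci, with medians of 5.19 and 5.63, sit level with gene-end loci, at 5.15 and 5.73, and above loci inside protein-coding genes, at 4.88 and 5.34.

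A distal region was shared by the other library less often than a gene-end region, also at equal fold. Of all distal regions in the library labelled untreated, 4432 of 6790, or 65.3% (64.1 to 66.4%), overlapped a region of the other library, against 85.8% (85.0 to 86.5%) at gene ends. From the library labelled lactate the shares were 4407 of 7387, or 59.7% (58.5 to 60.8%), against 70.9% (70.0 to 71.8%). Among regions with a fold of 5 to 6, the shares were 77.1% against 91.7% by the first library and 63.5% against 79.7% by the second. At a fold of 8 or more, 98.1% and 96.2% of distal regions were shared, against 99.6% and 98.7% at gene ends. Pileup and background were lower at distal loci, as given above, and their part in this difference was not tested.

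Pileups were compared between the libraries after division by each library's total tags. The pairs at distal loci ran together, with a Pearson correlation of log pileup of 0.82 and a Spearman correlation of fold of 0.60 across 4325 loci, which share the same libraries. Summits lay a median of 35 bp apart, and 77.9% lay within 100 bp. The median log2 ratio of the library labelled lactate over the library labelled untreated was 0.19 (0.17 to 0.21) at distal loci, a ratio of 1.14. It was 0.29 (0.29 to 0.30) at gene ends and 0.23 over all shared loci. Distal loci were higher in the library labelled lactate in 2903 cases, or 67.1%, beside 71.4% of all shared loci. Counts of higher loci at single deserts and genes, given below, stand beside these shares. Relative to the median of all shared loci, the median of the distal loci was -0.04. Above the median of all shared loci lay 1947 distal loci, or 45.0%, where 55.4% of gene-end loci did. The direction of the distal loci therefore turned with the scaling, and the directions below are those after scaling to total tags. Distal loci of high background had a median log2 ratio of 0.29 and the other 3250 one of 0.16.

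Changes of 2-fold or more were rare. In the library labelled lactate 129 distal loci, or 2.98% (2.50 to 3.53%), were at least 2-fold higher, beside 3.35% of all shared loci. A further 17, or 0.393%, were at least 2-fold lower, beside 0.33% of all shared loci. Both shares are near those of all shared loci.

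**Figure D3:**
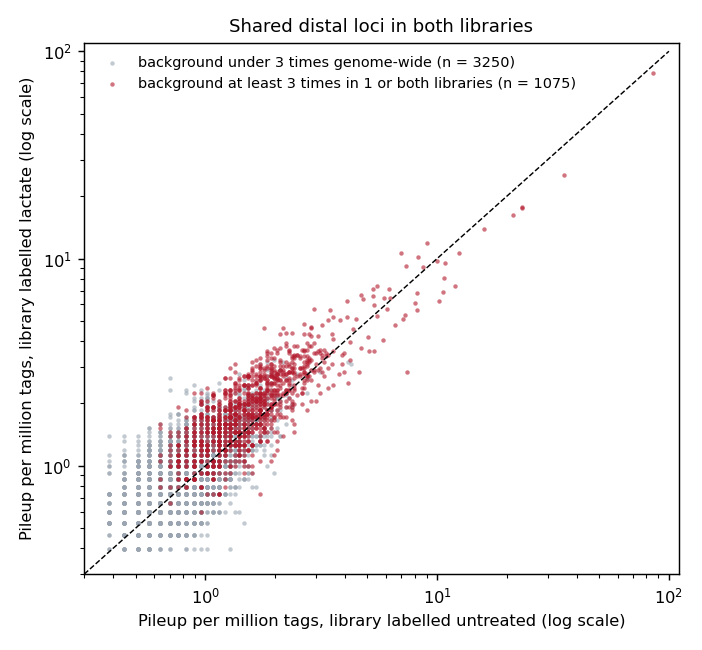
Pileup of each shared distal locus scaled to total tags, with the library labelled untreated on the x axis and that labelled lactate on the y axis, both log scales. Red points are the 1075 loci of high background, and the dashed line marks equal values. Points follow it, with a median ratio of 1.14 and 129 loci at least 2-fold higher and 17 at least 2-fold lower in the library labelled lactate.

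The loci with the highest ratios among those with at least 20 tags in 1 library lay near genes of several kinds. The highest was chr13:30865304-30865661, 40.8 kb from MEDAG, a gene linked to fat cell differentiation, with 11 and 40 tags and a ratio of 3.77 (1.90 to 8.16). At chr12:65656675-65657324, 167 kb from HMGA2, a chromatin protein of embryonic and tumour cells, the pileup was 11 and 35 tags and the ratio 3.30 (1.64 to 7.21). At chr12:4215746-4216405, 57.8 kb from the cell cycle gene CCND2, it was 7 and 21 tags, a ratio of 3.11 (1.28 to 8.67). Loci near PRTFDC1, with 6 and 21 tags, and UPP2, with 7 and 20 tags, completed the 5 highest. All 5 had fewer than 3 times the genome-wide background in both libraries.

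The 5 lowest ratios were at loci near N4BP1, XCL2, EMB, LOC124903767 and TBL1XR1. At chr16:48773864-48774248, 164 kb from N4BP1, the pileup was 20 and 6 tags, a ratio of 0.311 (0.102 to 0.804). At chr1:168506224-168506766, 34.3 kb from the chemokine gene XCL2, it was 23 and 8 tags, a ratio of 0.361 (0.140 to 0.836). At chr5:49666076-49667338, 729 kb from EMB, it was 116 and 43 tags, a ratio of 0.385 (0.265 to 0.550), with backgrounds of 14.3 and 5.34. The remaining 2, chr16:34576120-34576643 with 27 and 11 tags and chr3:177777701-177778055 with 22 and 9 tags, had ratios of 0.423 and 0.425. Since these 10 loci were picked for their ratios, the intervals describe counting error and are no test.

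Of the distal loci with a fold of at least 10, 39 of 92 in the library labelled untreated had high background, and 69 of 190 by the other library. The highest fold in the library labelled untreated was at chr21:10692638-10693062, 87.1 kb from TPTE, with 160 and 94 tags, folds of 31.1 and 23.8 and backgrounds of 4.18 and 3.0. Next came chr10:41859772-41860078, with 195 and 160 tags and folds of 25.1 and 24.6, and chr5:11366-11861, with 142 and 179 tags and folds of 22.4 and 24.5. The highest pileup of any distal locus was at chr3:93470259-93470899, 402 kb from PROS1, with 1343 and 1188 tags over backgrounds of 60.1 and 51.1, for folds of 22 and 22.8. Of the 8 loci with the highest folds in the library labelled untreated, 6 had high background. The other 2 were chr10:127797337-127797740, 56.4 kb from the forkhead gene FOXI2, with 65 and 48 tags and folds of 20.6 and 16.1, and chr18:4510694-4511122, 55.6 kb from DLGAP1, which encodes a postsynaptic scaffold, with 67 and 47 tags and folds of 20.1 and 17.3. In the library labelled lactate the 8 highest also took in chr4:190122223-190123176, 50.9 kb from DUX4, with 110 and 160 tags, chr11:134851584-134852163, with 45 and 70 tags, and chr4:9935-10510, with 39 and 42 tags. The last of these had backgrounds of 1.44 and 1.40 and was not of high background, while the other 2 were. Of the loci named here, chr4:9935-10510 and chr5:11366-11861 lay outside the outermost gene of their chromosome. The locus chr10:41859772-41860078 lay in a desert that spans a centromere. Centromeres were not mapped here, and others of these loci may also lie in or beside one. Repeat content was not measured at any of them, and a background that is not high does not show that reads were placed with certainty.

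The loci farthest from any gene were in long deserts of chromosomes 1 and 17. The farthest, chr1:125182456-125182843, lay 3611 kb from any gene and 3720 kb from a protein-coding one, with 36 and 35 tags and folds of 3.03 and 4.07. Its neighbour chr1:125178846-125180763 had 128 and 85 tags and folds of 10.5 and 9.71. The next, chr1:123550821-123551093 and chr1:123550320-123550531, had 16 and 14 tags and 16 and 10 tags. The fifth, chr17:25074218-25074622, had 15 and 12 tags and folds of 7.95 and 6.58. By the known map these stretches of chromosomes 1 and 17 span centromeres, where repeated sequence makes the placement of reads less certain, and repeat content was not measured here.

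Gene deserts held from 0 to 14 loci. Of 13467 deserts with a distal part, 2778 held at least 1 locus, 1873 of them exactly 1. There were 61 deserts with 5 or more loci, which held 399 loci together, and 6 with 10 or more. Density fell with the size of the desert. Deserts with a distal part of up to 50 kb held 9.63 loci per Mb, those of 100 to 200 kb 4.70, those of 200 to 500 kb 2.92 and those of 500 to 1000 kb 1.67. The 30 deserts over 1000 kb covered 176 Mb and held 63 loci in 13 of them, or 0.357 per Mb. These 63 loci differed from the rest in background. Their median background was 4.46 and 3.30 tags, 60.3% had high background, and 19 of 63 (30.2%) were higher in the library labelled lactate, with a median log2 ratio of -0.23. In deserts up to 50 kb, 34.3% had high background and 69.5% were higher in the library labelled lactate. Thus in small deserts most loci were higher in the library labelled lactate, while most of those in the largest deserts were lower. The part of background in this was not tested.

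The desert with the most loci lay downstream of UTRN, the gene of utrophin, a dystrophin relative that links the cytoskeleton to the membrane. Between UTRN and the tRNA gene TRQ-TTG4-1 on chromosome 6, 310 kb of distal sequence held 14 loci, or 45.2 per Mb. The strongest pileup was at chr6:145110117-145110528, 257 kb from UTRN, with 60 and 76 tags and folds of 8.89 and 10.2. Nearest to UTRN, chr6:144897560-144898328 had 45 and 71 tags and folds of 7.14 and 10.7. The locus chr6:144977254-144977898 had the highest fold in the library labelled untreated, 9.28 beside 9.76, with 35 and 39 tags. Of the 14 loci, 11 were higher in the library labelled lactate, and the 3 that were lower were neighbours at 218 to 244 kb, with 31 and 17, 24 and 15, and 15 and 12 tags. The median log2 ratio of the 14 was 0.24, near the 0.23 of all shared loci. High background was found at 11 of the 14, and backgrounds ranged from 1.80 to 7.56 and from 1.56 to 9.66 tags.

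The densest of the 8 deserts, at 164 loci per Mb, differed in direction. Beyond CWH43, a gene of lipid anchor remodelling on chromosome 4, 13 loci lay within 57.3 kb, and all 13 had high background, from 6.76 to 29.7 and from 5.14 to 22.5 tags. Its strongest locus, chr4:49149280-49149925, had 555 and 381 tags and folds of 18.1 and 16.3. The next, chr4:49147173-49147543, had 251 and 210 tags, and chr4:49092646-49092980 had 126 and 92. Only 2 of the 13 were higher in the library labelled lactate, chr4:49118778-49119166 with 84 and 90 tags and chr4:49139546-49139896 with 93 and 97, and the median log2 ratio was -0.44. On chromosome 16, 10 loci within 22.7 kb between LOC102724523 and LINC02184 also had high background and low ratios. Their pileups were 19 to 65 and 11 to 45 tags, all 10 had high background, 0 of 10 were higher in the library labelled lactate, and the median log2 ratio was -0.59. Both stretches lie near centromeres by the known map, with annotated genes between.

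Deserts that span a centromere were long and had few loci per Mb. On chromosome 10, between CHEK2P5 and KSR1P1, 9 of the 11 loci lay at one edge of a 3410 kb distal part, between chr10:41859772-41860078 and chr10:41904033-41904284. All 9 had high background, while the 2 at the other edge, with 14 and 9 and 15 and 19 tags, did not. On chromosome 1, between EMBP1 and LOC101929814, 11 loci stood in 21.7 Mb, with 3 of 11 higher in the library labelled lactate and a median log2 ratio of -0.27. On chromosome 17, between WEE1P2 and LOC100422478, 9 loci in 4.26 Mb had the highest median folds of these 8 deserts, 11.9 and 10.96, and 2 of 9 were higher in the library labelled lactate. There chr17:26594688-26595223 had 49 and 43 tags and folds of 16.8 and 15.9, over backgrounds of 1.98 and 1.76. High background was thus not found at every strong locus of these stretches.

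The other deserts rich in loci lay in chromosome arms. Between ZNF619P1 and LOC105375266 on chromosome 7, in the stretch from IGFBP3 to TNS3, 311 kb of distal sequence held 11 loci, or 35.4 per Mb. Their pileups were 11 to 30 and 9 to 37 tags, and 9 of 11 were higher in the library labelled lactate, with a median log2 ratio of 0.36. High background was found at 7 of these 11. The largest pileup in the library labelled lactate was at chr7:46168356-46169322, with 24 and 37 tags and folds of 5.90 and 8.76. In front of BMAL1, a core gene of the circadian clock, on chromosome 11, 9 loci stood in 141 kb of distal sequence, or 64.0 per Mb, and 7 of 9 were higher in the library labelled lactate. The strongest there was chr11:13215831-13216796, with 48 and 54 tags and folds of 9.42 and 9.89. Of these 9 loci, 4 had high background, beside 24.9% of all distal loci.

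Among deserts with at least 200 kb of distal sequence, the 5 densest were those at UTRN and in the IGFBP3 to TNS3 stretch and 3 more with 7 loci each. Between LOC124903746 and LINC02181 on chromosome 16 the density was 33.5 per Mb, with pileups of 10 to 23 and 11 to 26 tags, 5 loci of high background and 4 of 7 higher in the library labelled lactate. Between LOC100129456 and LOC105373745 on chromosome 2, in the stretch from CDCA7, a MYC target of dividing cells, to SP3, a GC box-binding factor, it was 32.2 per Mb. None of these 7 loci had high background, and the strongest, chr2:173652816-173653115, had 23 and 29 tags and folds of 7.55 and 8.82. Between LOC105374243 and LINC01994 on chromosome 3, in the stretch from SOX2 to ATP11B, it was 28.7 per Mb, again with 0 loci of high background. There chr3:182389030-182389736, nearer to ATP11B than to SOX2, had 30 and 33 tags and folds of 8.29 and 9.39. Nearer to SOX2, chr3:182212464-182213035 had 23 and 24 tags. In the last 2 deserts 5 of 7 loci were higher in the library labelled lactate, with median log2 ratios of 0.05 and 0.12, both below the 0.23 of all shared loci. With loci of high background left out, 0 deserts kept 10 or more.

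**Figure D4:**
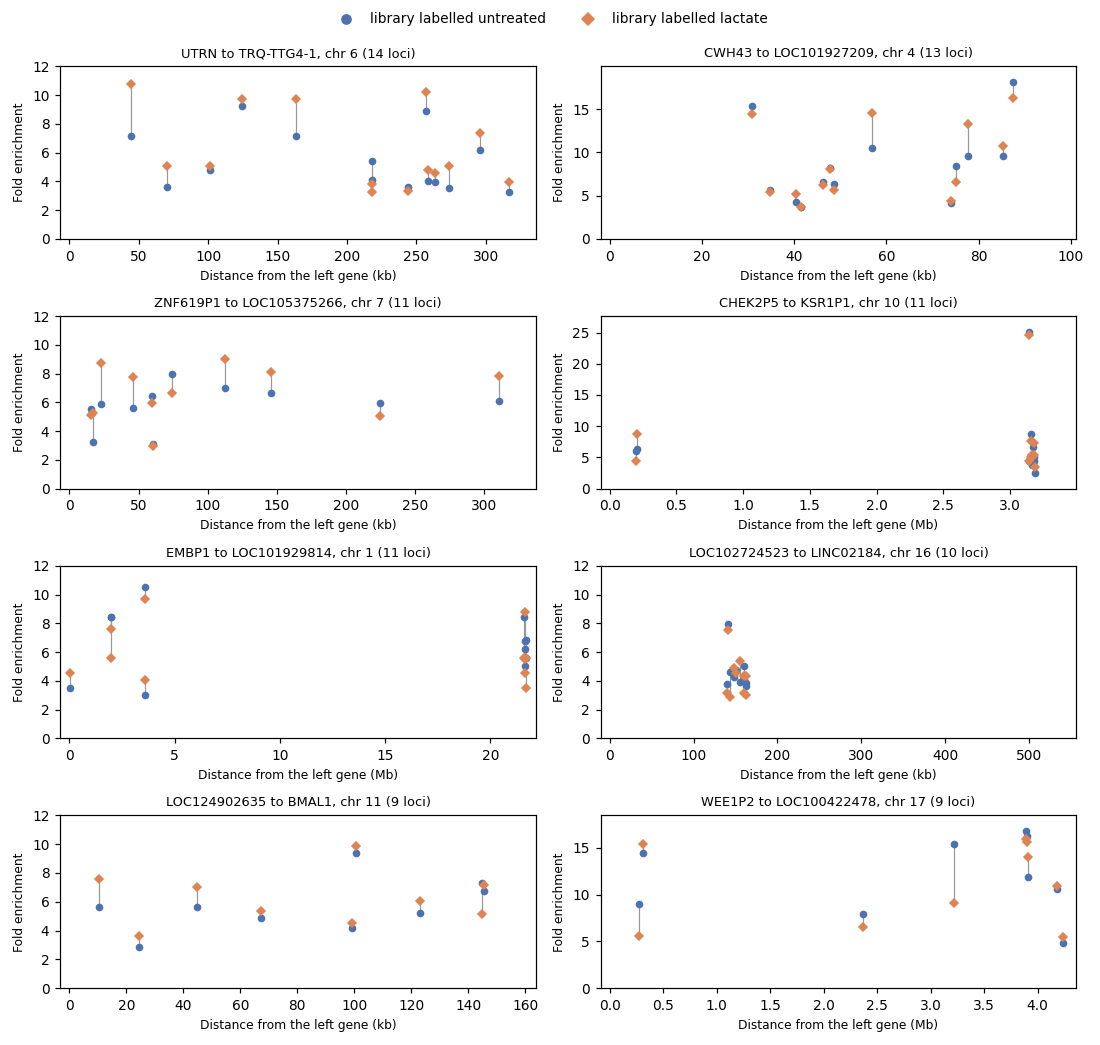
Fold enrichment (y axis) at the distal loci of the 8 deserts with the most loci, by distance in kb or Mb from the gene at the left edge (x axis), with circles for the library labelled untreated, diamonds for that labelled lactate and a line joining each pair. The 14 loci beyond UTRN are spread over 273 kb, while the 13 beyond CWH43 lie within 57.3 kb and the 10 between LOC102724523 and LINC02184 within 22.7 kb.

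**Figure D5:**
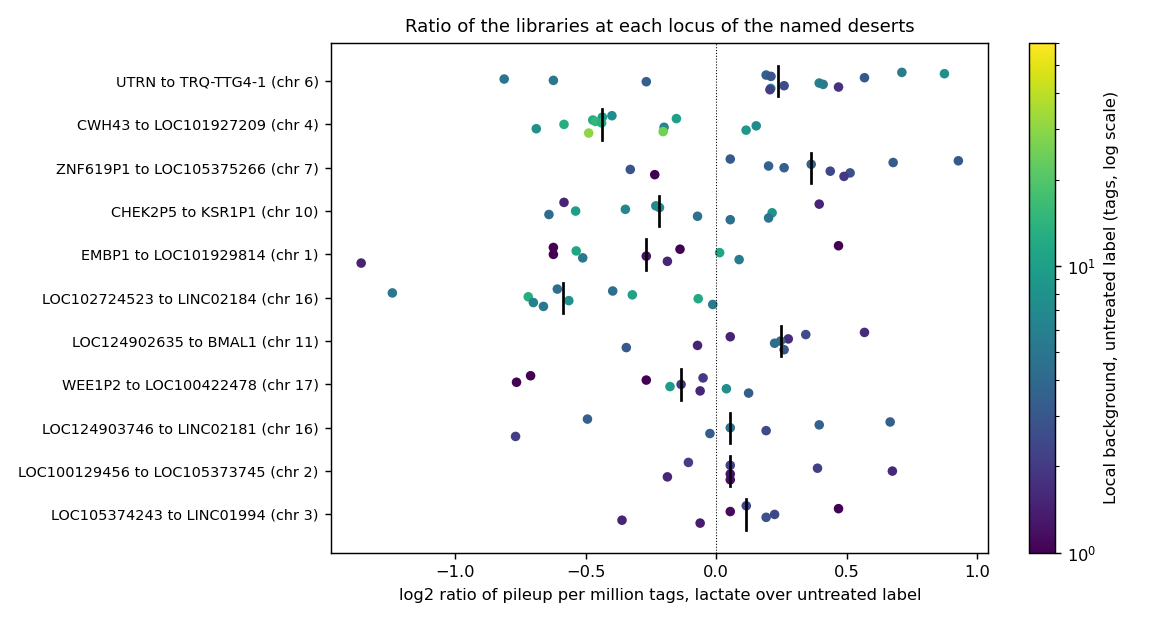
Log2 ratio of depth-scaled pileup, lactate label over untreated label (x axis), at each locus of the 11 named deserts (y axis), coloured by local background in tags (log scale), with a bar at each median and points spread vertically for legibility. The medians of the deserts at CWH43, LOC102724523, EMBP1, CHEK2P5 and WEE1P2 sit below 0, and those at UTRN, ZNF619P1 and BMAL1 sit at 0.24, 0.36 and 0.25.

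Counting from protein-coding genes, 2393 of 19974, or 12%, were the nearest to at least 1 distal locus, 1452 of them to exactly 1. Only 8963 genes are the nearest gene to any distal territory at all, and 26.6% of these had a locus. At least 5 loci were nearest to 126 genes, of which 55 had no locus of high background, and at least 10 to 13 genes. With 20 loci, CWH43 had the most, 19 of them of high background. IFTAP, which encodes a protein of ciliary transport, had 16 loci at 299 to 1431 kb, 7 of them of high background. They were spread over 1.25 Mb of territory. The strongest of them, chr11:38089595-38090505, had 46 and 53 tags and folds of 10.98 and 12.2. IGFBP3, a secreted binding protein of insulin-like growth factors, also had 16 loci, at 211 to 670 kb, with 30.9 loci per Mb of territory. Of these 16, 8 had high background and 12 were higher in the library labelled lactate. The last but 1 of them, chr7:46568573-46569404, had 26 and 42 tags and folds of 6.99 and 10.0.

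TBL1XR1, a subunit of nuclear corepressor complexes, had 14 loci on both sides, 3 of them of high background, and 11 of 14 were higher in the library labelled lactate. Of these, chr3:177357298-177357708 had 27 and 40 tags and chr3:176848375-176849153 had 15 and 23. ARAP2, a regulator of small GTPases, and UTRN had 12 loci each. ACTL7B, an actin-like gene of the testis, had 11 loci at 67.1 to 376 kb, 7 of them of high background. All lay in the 1365 kb stretch that begins at KLF4, a transcription factor of the epidermis, and were nearer to ACTL7B than to KLF4. There chr9:108543126-108543903 had 35 and 57 tags and chr9:108691571-108691998 had 23 and 35, and 9 of 11 were higher in the library labelled lactate. BMP2, a secreted signal of the TGF-beta family, had 11 loci at 20.6 to 224 kb, 2 of them of high background and 9 of 11 higher in the library labelled lactate. The strongest, chr20:6590879-6591807 at 176 kb, had 33 and 56 tags and folds of 8.02 and 11.8, and chr20:6685021-6685668 had 20 and 21 tags. OTOL1, an inner ear matrix gene, had 11 loci over 1.55 Mb, and chr3:161890174-161890721 among them had 45 and 44 tags and folds of 13.1 and 14.3.

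The remaining genes with 10 loci were C16orf95, EMB, LOC124903767 and WSB1. EMB, the gene of embigin, a partner of monocarboxylate transporters, had 2 of 10 higher in the library labelled lactate and a median background of 39.5 and 32.3 tags. Its 2 strongest loci, chr5:49658254-49658877 with 366 and 267 tags and chr5:49659366-49660047 with 364 and 266, lay 738 and 736 kb from the gene. At 15.2 kb on the other side of EMB, chr5:50458357-50458822 had 12 and 18 tags over backgrounds of 1.22 and 1.26. The 10 loci of LOC124903767 were those already described between LOC102724523 and LINC02184, with 0 of 10 higher in the library labelled lactate.

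A promoter region in both libraries was found at 5820 of 15812 protein-coding genes with a promoter sequence, or 36.8%. Among genes with some distal territory the share was 31.9% with 0 distal loci (30.6 to 33.2%), 38.2% with 1 (35.4 to 41.1%), 42.0% with 2 to 4 (38.2 to 46.0%) and 44.6% with 5 or more (34.7 to 54.8%). The median territory rose over the same steps from 0.0141 to 0.361 Mb. Among all genes, with or without distal territory, the share with 0 loci was 36.4% (35.6 to 37.2%). It was 38.1% with 1 (35.3 to 41.0%), 42.0% with 2 to 4 (38.1 to 45.9%) and 44.6% with 5 or more (34.7 to 54.8%). There the interval with 0 loci overlapped those with 1 and with 5 or more. Differences between these steps were not tested.

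The genes of 8 lists were then looked up as nearest genes. The lists were chosen with results of these data known, and their counts are descriptions beside 26.6% of all protein-coding genes with territory and 4.57 loci per Mb. Of 30 genes of squamous epithelium, 9 were nearest to a distal locus, out of 21 with territory (42.9%), with 24 loci at 8.76 per Mb. TFAP2A, a transcription factor of surface ectoderm, had 7 loci at 96.4 to 914 kb, none of high background. All 7 of 7 were higher in the library labelled lactate, beside 71.4% of all shared loci. Their median log2 ratio was 0.25, near the 0.23 of all shared loci. Their pileups were 14 and 16, 19 and 21, 15 and 16, 12 and 16, 14 and 19, 10 and 15, and 12 and 12 tags, the last higher only after scaling to depth. GRHL3, a factor of the epidermal barrier, had 4 loci at 24.3 to 52.6 kb, with 23 and 27, 18 and 25, 13 and 22, and 14 and 20 tags, all higher in the library labelled lactate and all of high background. SOX2, a stem cell factor of squamous tissue, had 4, with 11 and 13, 15 and 11, 23 and 24, and 6 and 8 tags. TP63, the master regulator of stratified epithelium, had 2, chr3:189563805-189564564 with 20 and 19 tags and chr3:189914921-189915456 with 13 and 10.

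Of 30 genes of AP-1, EGF receptor and YAP signalling, 14 were nearest to a locus, out of 21 with territory (66.7%), with 32 loci at 10.5 per Mb. MYC, a growth regulator, had 6 loci at 385 to 923 kb, with pileups of 9 to 17 and 8 to 19 tags. SPRY2, an inhibitor of receptor tyrosine kinase signalling, had 6, of which chr13:80086060-80086796 was the strongest with 26 and 27 tags. EGFR, the EGF receptor itself, had 4 at 13.4 to 58.2 kb, with 23 and 28, 32 and 42, 28 and 27, and 12 and 15 tags. Of these 4 loci, 3 had high background. DUSP6, a phosphatase that turns off ERK, had 2, and chr12:89117409-89118058 at 230 kb had 27 and 47 tags and folds of 10.0 and 14.4. DUSP6 and TP63 fall outside the rule for named genes and were chosen after their values were seen.

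The list of epithelial-mesenchymal transition and invasion had 11 of 30 genes nearest to a locus, out of 22 with territory (50%), with 18 loci at 5.97 per Mb. SNAI2, a repressor of E-cadherin, had 3 loci at 18.2 to 52.6 kb, with 20 and 20, 10 and 17, and 12 and 15 tags. TGFB2, a ligand of the TGF-beta receptors, had 3, and chr1:218496629-218497021 at 52.2 kb had 25 and 48 tags and folds of 6.88 and 11.7. Of 30 developmental transcription factors, 16 were nearest to a locus, out of 25 with territory (64%), at 5.29 loci per Mb. SOX9, a factor of cartilage, gonad and epithelial stem cells, had 8 loci at 25.3 to 708 kb on both sides, and 2 of 8 were higher in the library labelled lactate. The nearest, chr17:72151581-72151990, had 21 and 12 tags, and chr17:71438769-71439212 had 13 and 7. PAX3, a neural crest factor, had 5 loci with 9 to 15 and 11 to 19 tags.

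The remaining lists had fewer loci, or far more territory. Of 30 neuronal adhesion and synapse genes, which border many long deserts, 13 were nearest to a locus, out of 28 with territory (46.4%), with 28 loci in 25.9 Mb, or 1.08 per Mb. PCDH7 and CDH18, both adhesion proteins, had 5 and 4. Of 20 blood cell genes, 2 were nearest to a locus, out of 9 with territory (22.2%), at 2.00 loci per Mb. GATA3 had 1 with 10 and 19 tags, and IKZF1 had 1 with 21 and 26 tags. Of 25 genes of glycolysis and lactate handling, 3 were nearest to a locus, out of 9 with territory (33.3%), at 8.08 loci per Mb. The glycolytic enzymes ENO1 and PGK1 had 1 each, at 11.96 and 11.8 kb, with 16 and 18 and with 20 and 19 tags, and the lactate transporter SLC16A7 had 1 at 25.6 kb with 15 and 15 tags. These 3 loci differed little between the libraries. Of 25 ribosomal protein genes, 2 were nearest to a locus, out of 8 with territory (25%). Their 3 loci in 0.136 Mb gave 22.1 per Mb, the highest density of the 8 lists, on the least territory. RPS3 had 2, with 20 and 24 and with 21 and 19 tags, and RPL5 had 1, with 14 and 8 tags. The median number of loci per gene was 1 for the developmental transcription factors and 0 for each of the other 7 lists and for all protein-coding genes.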

How the data were processed

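CUT&Tag for lactylated lysine was analysed in 2 libraries of CAL27 cells, 1 per group. The submitters' processing notes name hg38, BWA, fastp 0.20.0 and MACS2 2.1.0. MACS ran on single libraries with no control, per the file headers, with a q limit of 0.05, an extension of 200 bp and a shift of -100 bp. The deposited pileup is a signal that counts tags at the summit, not scaled to depth, and the authors' fold enrichment is a ratio to local background.

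Summits were collapsed to regions, joined into loci by an overlap of at least 1 bp (bedtools 2.31.1 gave the same counts of shared regions), and placed by the RefSeq genes of GRCh38.p14, 59098 in all. Background was recomputed from pileup and fold, and pileup was divided by total tags. No test was run, since each group is 1 library. Intervals are exact binomial, Poisson ratio or rank intervals at 95%, and tags are not independent molecules. The interval of a difference of medians joins the bounds of both rank intervals.

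The members and lists were chosen with earlier results of these data known. Named were the 8 loci of highest fold in each library, the 5 farthest from genes, the 5 highest and lowest ratios with at least 20 tags in 1 library, the 8 deserts with the most loci, the 5 densest of at least 200 kb, the 12 genes with the most loci (13 with ties) and up to 3 genes per list. The 8 lists hold 220 genes. Some loci and genes that the rule names are given by counts only. The code was tested on simulated data. Computation ran on numpy 2.4.6, pandas 2.3.3 and SciPy 1.17.1 under Python 3.11.15, with figures by matplotlib 3.10.9.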

Additional observations from a re-analysis of the deposited data

How the results depend on the processing

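No paired analysis was possible because each group has 1 library. The number of shared distal loci, 4325, became 966 with a distance over 50 kb, 1989 with a fold of at least 5 in both lists, 2267 with a recomputed −log10 p of at least 7, 1991 with the strongest 20000 regions of each list and 9425 with protein-coding genes only. The density ratio of 0.370 became 0.426 over 5 kb and 0.188 over 50 kb, 0.421 with the fold limit, 0.356 with the p limit, 0.419 with the strongest regions, 0.440 with protein-coding genes only, 0.477 without high background and 0.446 without deserts over 2 Mb. It stayed below 1 in all of these. The median distance to a protein-coding gene, 63.0 kb, became 45.9 kb over 5 kb and 201 kb over 50 kb, 72.7 with the fold limit, 73.1 with the strongest regions, 56.0 with protein-coding genes only and 74.3 without high background. The difference in median fold from gene ends, 0.04 in the library labelled untreated, became 0.29 over 50 kb, 0.17 with the p limit and -0.083 with the strongest regions, and that in the library labelled lactate, -0.10, became 0.10 over 50 kb and 0.086 with the p limit. The median log2 ratio of 0.19 became 0.17 over 50 kb, 0.16 with the fold limit, 0.21 with the strongest regions and 0.16 without high background, and it reversed to -0.043 when centred on all shared loci, which its construction sets. The 6 deserts with 10 or more loci became 3 over 50 kb, 1 with the fold limit, 1 with the p limit, 1 with the strongest regions, 120 with protein-coding genes only and 0 without high background. Stricter limits test fewer regions, and other causes were not tested. The limit of 2 Mb on deserts and the centring on all shared loci were chosen after seeing the data. At a median pileup of 15 and 16 tags, single loci can show large changes only.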

Other observations

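Outside the outermost annotated gene of a chromosome stood 7 further distal loci, which belong to no desert. Near the start of chromosome 4, chr4:9935-10510 had 39 and 42 tags (untreated label first, here and below), with folds of 16.4 and 17.9 over backgrounds of 1.44 and 1.40, and it lay 43.2 kb from ZNF595. Near the start of chromosome 5, chr5:11366-11861 had 142 and 179 tags and folds of 22.4 and 24.5. Beyond PARD6G, a polarity gene at the end of chromosome 18, chr18:80258202-80258499 had 36 and 37 tags and chr18:80262800-80263345 had 42 and 55, both with high background. The others were weaker: chr7:159335541-159335913 at 191 kb beyond VIPR2 had 9 and 9 tags, chr12:133264632-133265119 at 29.02 kb from ANHX had 11 and 12, and chrX:10439-10734, at 266 kb from PLCXD1, had 8 and 7. Pileups at 5 of these 7 loci differed between the libraries by 3 tags or fewer. Repeat content was not measured at these chromosome ends, so the placement of reads there is not certain.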
